A study of Homo sapiens with 5 samples.

Results

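The genes described here are the nuclear genes of the mitochondrial respiratory chain and ATP synthase, the machinery that turns nutrient oxidation into ATP. They were taken from the deposited table by symbol (the NDUFA, NDUFB, NDUFC, NDUFS and NDUFV genes, SDHA to SDHD, the UQCR genes, the COX4 to COX8 genes and the ATP5 genes), which gave 56 of 4202 genes. By complex they are 18 genes of complex I, 2 of complex II, 8 of complex III, 10 of complex IV and 18 of complex V, and 51 of the 56 encode structural subunits. NDUFA4 was counted with complex IV, where its protein resides. The other 5 are the assembly factors NDUFAF3 and NDUFAF8, the ATP synthase inhibitor ATP5IF1, and the intronless copies UQCRHL and ATP5MGL. RefSeq holds 96 protein-coding symbols of this pattern, and 41 of them have no row in the table (COX5A, NDUFS7, NDUFV2, SDHB, SDHC and UQCRC2 among them) and were not analysed here.

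RNA came from MDA-MB-231 cells, an established line of triple-negative breast cancer, after 4 h in 5 conditions. These were mock, CGI-1746 (a BTK inhibitor), LU-102 (a proteasome inhibitor that prefers the trypsin-like site), both of these together (the combination), and bortezomib, a clinical proteasome inhibitor that acts mainly on the chymotrypsin-like site. The sources used here give no doses. Each condition has 1 library of total RNA, so the spread between replicates is unknown and nothing could be tested. The series asks how CGI-1746 acts on the proteasome, and bortezomib stands for the changes that proteasome inhibition brings.

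Electrons from NADH enter the chain at complex I and those from succinate at complex II. They pass through complex III and cytochrome c to complex IV, which reduces oxygen, while complexes I, III and IV pump protons out of the matrix. Complex V lets the protons back through a ring of c subunits and drives its F1 head, which makes ATP. Subunits of complexes I, III, IV and V come from both nuclear and mitochondrial DNA. The mitochondrially encoded ones were not analysed here. In breast cancer cells the chain is studied as a source of ATP, of aspartate and of reactive oxygen.

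The values are the authors' normalized levels, reads per gene length and library on a scale that is not stated. Levels of short RNA genes, 36 to 42 per library, lay mostly on an even grid once multiplied by length, so levels were taken as divided by length. A step of that grid was taken as part of a read, which was not tested. If a step is 1 whole read, the read numbers would be larger and the counting intervals narrower. Levels are compared between genes on that basis, although the transcript lengths the authors used are not given. If the levels are RPKM, that choice gives libraries of 16.8 to 18.6 M reads. That calibration and the transcript lengths of GENCODE 29 give a rough read number for each member, from which counting intervals (exact Clopper-Pearson, 95%) were made. The intervals cover counting error only, not the variation between cultures. The line's mesenchymal markers VIM, AXL, CD44, LGALS1 and S100A4 were all 5 listed, and none of 12 genes that mark luminal or blood cells, or are tissue-restricted or hypoxia-linked isoforms of the chain, had a row. A row needs enough signal: the 5 levels of every listed gene summed to at least 5.04. Every member reached 5.43 or more without the bortezomib library, so none was listed through bortezomib alone.

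The chain genes were moderately expressed. In mock their median level was 3.54, against 3.05 for all 3967 protein-coding genes of the table, and they ran from 1.18 (NDUFB7) to 28.6 (ATP5F1B). Complex IV had the highest median of the complexes with 7.77, followed by complex II with 4.88, complex V with 4.23, complex III with 3.85 and complex I with 2.48. The complex IV median lies in a gap, between 5 genes well above it and the others at 3.60 or less. That of complex II rests on 2 genes. The medians of the treated libraries were 3.49 (CGI-1746), 3.41 (LU-102), 3.84 (combination) and 1.13 (bortezomib). All 56 genes were at a level of 1 or more in the first 4 libraries, and 30 of 56 were with bortezomib.

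**Figure D1:**
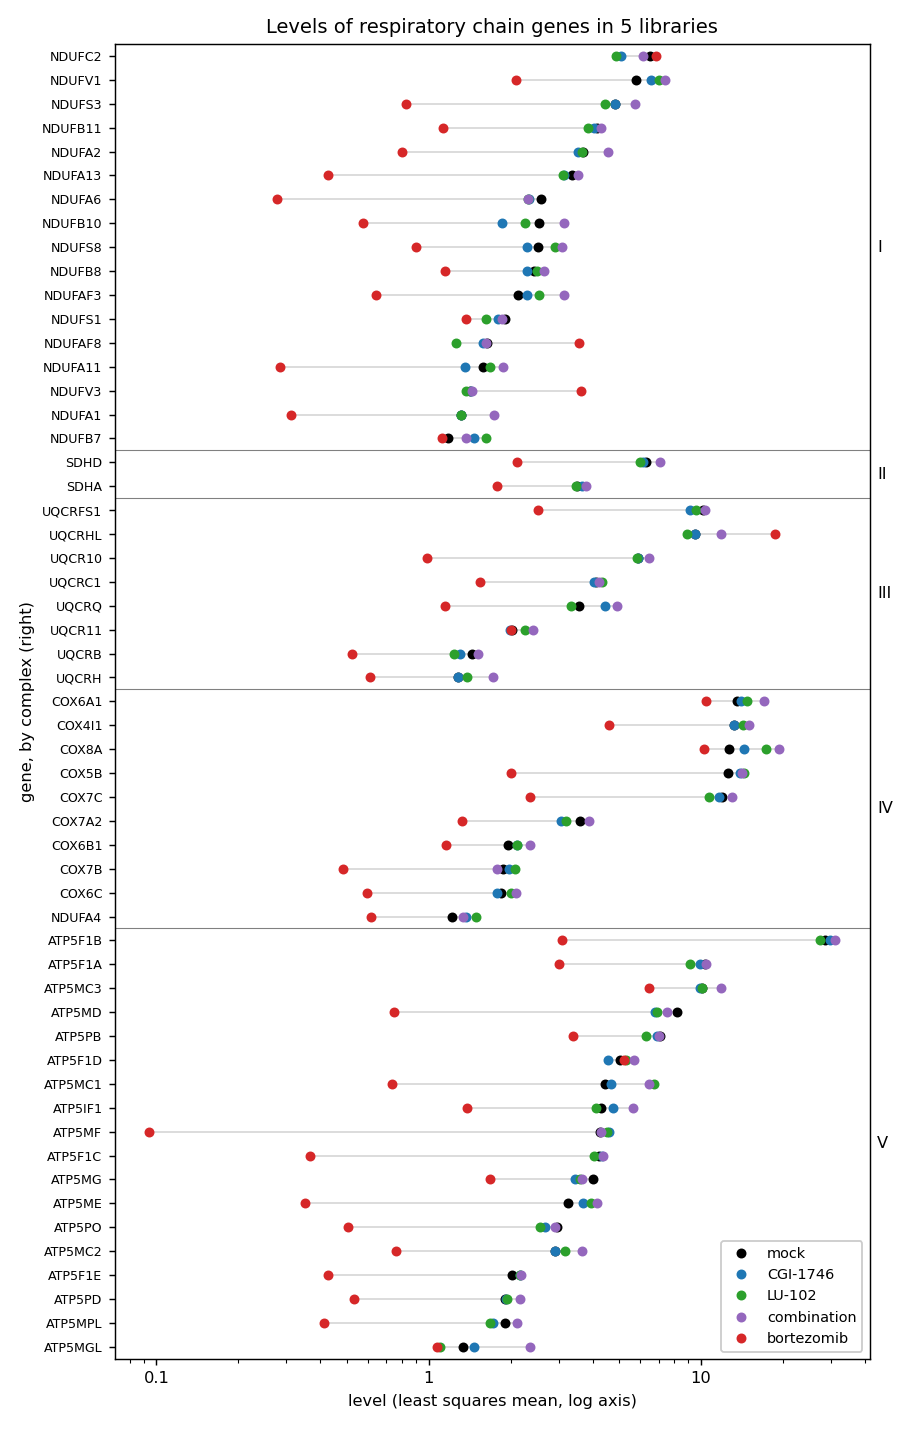
Level of 55 of the 56 genes in the 5 libraries (log axis), ordered by complex and by mock level. For most genes the mock, CGI-1746, LU-102 and combination points lie together and the bortezomib point lies to the left, while for UQCRHL, NDUFV3 and NDUFAF8 it lies to the right.

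Promoters of chain genes are known for sites of NRF1 and of ETS-family factors such as GABP, which link their transcription. Of 45 members with a promoter in the RefSeq table, 15 (33.3%) held the ETS core CCGGAAG on either strand in the 250 bases before the start, against 20.7% of 3321 listed protein-coding genes and 8.82% of all 27305 promoters. The NRF1 core GCGCATGCG was in 5 members (11.1%, against 3.64% and 1.78%). The longer palindrome, with C after it, was counted first and was in 2 (4.44%, against 2.41% and 1.13%). The motif AAGATGGCG of YY1 was in 0 (against 1.36% and 0.641%). In a window of 300 bases that holds these 250, it was in 2 (4.44%, against 5.15% and 1.85%). GGGCGG, the SP1 box, was in 27 members (60%, against 71.3% and 42.3%). Factor binding was not measured. The 100 bases before the start are shown for 4 genes on which the results below turn, 5′ to 3′ on the gene's strand (plus for all 4) in GRCh38.p14, with the ETS or NRF1 motif in capitals (the NRF1 core matches both strands of ATP5F1C, offset by 1 base). COX5B, COX6A1 and COX8A carry an ETS core, COX6A1 also an NRF1 core farther upstream, and their subunits share 1 enzyme but differed widely with bortezomib. ATP5F1C carries the NRF1 motif, as do ATP5MC2, ATP5ME and SDHD. The median bortezomib ratio was 0.258 for the 5 genes with it and 0.296 for the 40 without, a description with no test.
COX5B, chr2:97645962-97646061: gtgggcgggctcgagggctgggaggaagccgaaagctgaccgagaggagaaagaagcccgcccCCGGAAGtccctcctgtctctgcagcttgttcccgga
COX6A1, chr12:120438013-120438112: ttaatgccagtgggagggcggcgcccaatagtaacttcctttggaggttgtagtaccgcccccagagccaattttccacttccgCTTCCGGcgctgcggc
COX8A, chr11:63974520-63974619: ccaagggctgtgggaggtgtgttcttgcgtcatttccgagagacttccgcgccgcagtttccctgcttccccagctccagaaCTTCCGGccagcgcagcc
ATP5F1C, chr10:7788077-7788176: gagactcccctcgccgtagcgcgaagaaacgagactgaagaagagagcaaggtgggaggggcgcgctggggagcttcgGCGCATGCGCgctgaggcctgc

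CGI-1746 alone was compared with mock first. With CGI-1746 the chain genes stood close to mock. Their levels summed to 280.0, against 280.1 in mock, and their median difference on the log2(level + 1) scale was -0.01, against -0.02 for all genes compared. Calls were counted at 25% or more above the all-gene median, or 20% or more below it, which is the same fold in both directions. No member passed either bound, and of all genes 1.89% passed the upper and 0.717% the lower. The member with the highest difference among those at a level of 5 or more was COX8A, at 0.17, and the lowest was NDUFC2, at -0.31.

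With LU-102 the chain genes again stood close to mock as a group. The sum of levels was 282.8. The members' median difference was -0.01, against -0.06 for all genes, and 34 of 56 lay above the all-gene median. ATP5MC1, COX8A and the low-level NDUFB7 passed the upper bound (5.36%) and 0 passed the lower, against 3.29% and 0.692% of all genes. These shares are near the background. The counting intervals of ATP5MC1 (0.983 to 2.33) and NDUFB7 (0.577 to 3.24) include a ratio of 1. Complex IV was the complex farthest above, with a median 0.16 over the all-gene median and 8 of its 10 genes above it.

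With the combination the chain genes were somewhat higher than mock. The sum of their levels was 319.5, and their median difference was 0.12, which is 0.09 above the all-gene median of 0.03. Of the 56, 42 lay above the all-gene median. Other gene groups shifted the same way. The 43 mitochondrial ribosomal protein genes had a median 0.06 above it, with 28 genes above. The 78 cytosolic ribosomal protein genes had a median 0.05 above it, with 52 genes above. COX8A, ATP5MC1, UQCRQ, NDUFAF3 and ATP5MGL passed the upper bound and none the lower, against 4.34% and 1.93% of all genes. None of the 3 comparisons above had a member 2-fold higher or lower than mock. The background at 2-fold is 0.119% above and 0.0478% below with CGI-1746, 0.0715% and 0.0% with LU-102, and 0.167% and 0.0477% with the combination.

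**Figure D2:**
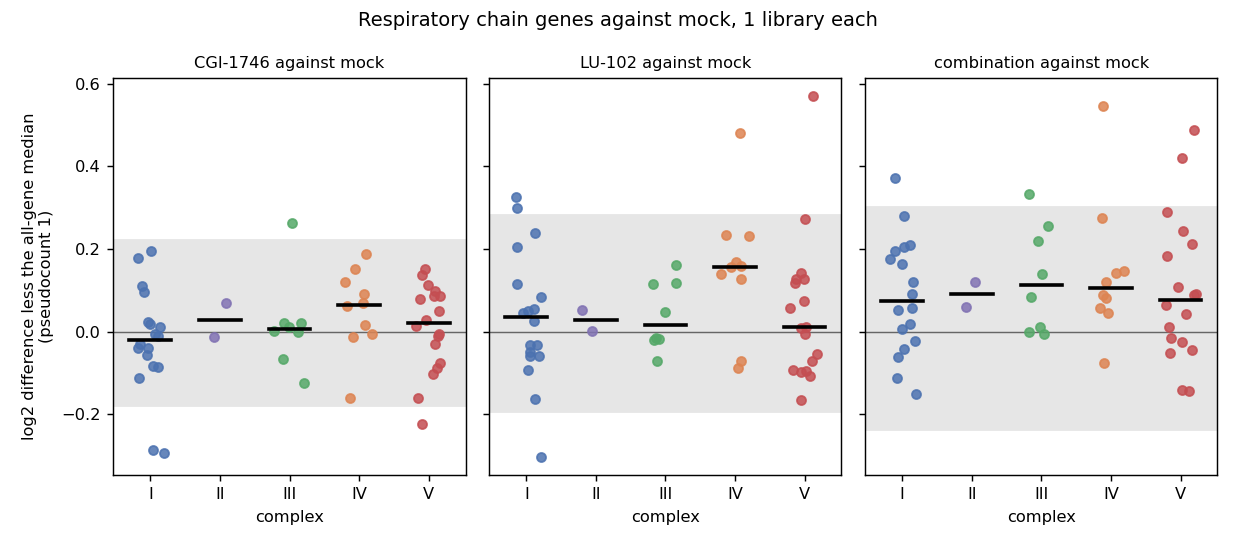
Difference of each chain gene from mock less the all-gene median (log2 scale, pseudocount 1), by complex, for CGI-1746, LU-102 and the combination. Points are genes, black bars are medians of a complex, and the grey band holds the central 90% of all genes. Most points lie inside the band, with COX8A and ATP5MC1 above it for LU-102 and the combination.

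All treatments were read against the same mock library, so the comparisons are not independent. Among mock, CGI-1746, LU-102 and the combination, the highest level was in the combination for 40 of 56 chain genes (71.4%), against 45.5% of protein-coding genes. After median-of-ratios scaling the numbers were 22 (39.3%) and 14.7%. The span from the lowest to the highest of these 4 libraries was a median of 1.21-fold for chain genes and 1.19-fold for all genes. Transcript GC content moved with these differences. Across 3966 protein-coding genes the log2 ratio of LU-102 to mock correlated with GC at r = 0.66 (rho = 0.70), and across the 56 members at r = 0.39 (rho = 0.40). For the combination r was 0.55 (rho = 0.61) and 0.32 (rho = 0.41). For bortezomib against mock r was 0.31 (rho = 0.34) and 0.13 (rho = 0.11). These genes share their 2 libraries. The 28 members of lower GC had a median combination-to-mock ratio of 1.08 and the 28 of higher GC 1.19. After a linear adjustment for length, GC and level over protein-coding genes, the members' median was 0.08 above the all-gene median. The part of GC in any of these differences was not tested.

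Against each single agent, the combination was also slightly higher in chain genes. Against CGI-1746 their median lay 0.10 above the all-gene median, and 42 of 56 lay above it. The medians of mitochondrial and cytosolic ribosomal protein genes lay 0.05 and 0.08 above it, with 28 of 43 and 62 of 78 genes above. Of the chain genes 4 (NDUFB10, COX8A, ATP5MC1 and ATP5MGL) passed the upper bound. None passed the lower. The background was 2.58% and 0.954%. Against LU-102 the chain median lay 0.04 above, where the mitochondrial ribosomal median lay 0.04 and the cytosolic 0.03 above. Of the chain genes 2 (UQCRQ and ATP5MGL) passed the upper bound and none the lower, against 1.31% and 1.65% of all genes. The departure of the combination from the sum of both single effects had a median of 0.16, against 0.10 for all genes. It passed the upper bound for NDUFB10, NDUFC2 and ATP5MGL and the lower for NDUFB7, against 1.95% and 3.0% of all genes. No member was 2-fold up or down in these 3 contrasts, where the background up and down was 0.0715% and 0.0238% against CGI-1746, 0.143% and 0.0% against LU-102, and 0.0715% each way for the departure. NDUFC2 and ATP5MGL overlap other genes, as given below, and NDUFB7 had only about 11 rough reads in mock.

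With bortezomib most chain genes were lower than mock, with a median close to that of all genes, and the genes of 1 complex were spread widely. The sum of their levels was 122.7, or 104.0 without UQCRHL. The median difference was -0.99, against -0.98 for all genes. Less the all-gene median it was -0.01, and it became 0.21 over the 17 members with a level of at least 5 and 0.087 without members that have named pseudogenes. The median ratio of levels was 0.323, against 0.318 for protein-coding genes. There were 28 of 56 members 2-fold or more lower on the log2(level + 1) scale, where 48.1% of all genes are, and 0 that were 2-fold higher, where 1.38% are. Relative to the all-gene median 16 passed the upper bound and 17 the lower, against 28.9% and 29.1%. At 2-fold from that median 5 lay above and 4 below, against 7.52% and 7.83%. The middle 50% of differences ran from -1.42 to -0.50 for the chain genes and from -1.39 to -0.57 for all genes.

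A shared scale lies behind these ratios. Listed protein-coding genes summed to 38163 in mock and to 12839 with bortezomib, or 38.4% and 9.47% of all summed levels. Levels are relative to a library's reads, so less mRNA per cell and more of other RNA cannot be told apart here, nor can fewer cells and less RNA per cell. As a share of the protein-coding sum the chain genes were 0.734% (mock), 0.744% (CGI-1746), 0.757% (LU-102), 0.778% (combination) and 0.955% (bortezomib). Without UQCRHL the bortezomib share was 0.810% and that of mock 0.709%. Among gene groups of related function, the 43 mitochondrial ribosomal protein genes had a median difference of -1.0 with bortezomib, with 21 of 43 2-fold lower. The 77 compared cytosolic ribosomal protein genes had -2.0, with 63 2-fold lower. Of all genes 48.1% were. The 2 groups differed in level, with mock medians of 4.45 for the 43 and 27.6 for all 78 cytosolic genes. Their median ratios of levels, without a pseudocount, were 0.310 and 0.208. The chain median thus lay next to that of the mitochondrial ribosome in these 2 libraries.

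**Figure D3:**
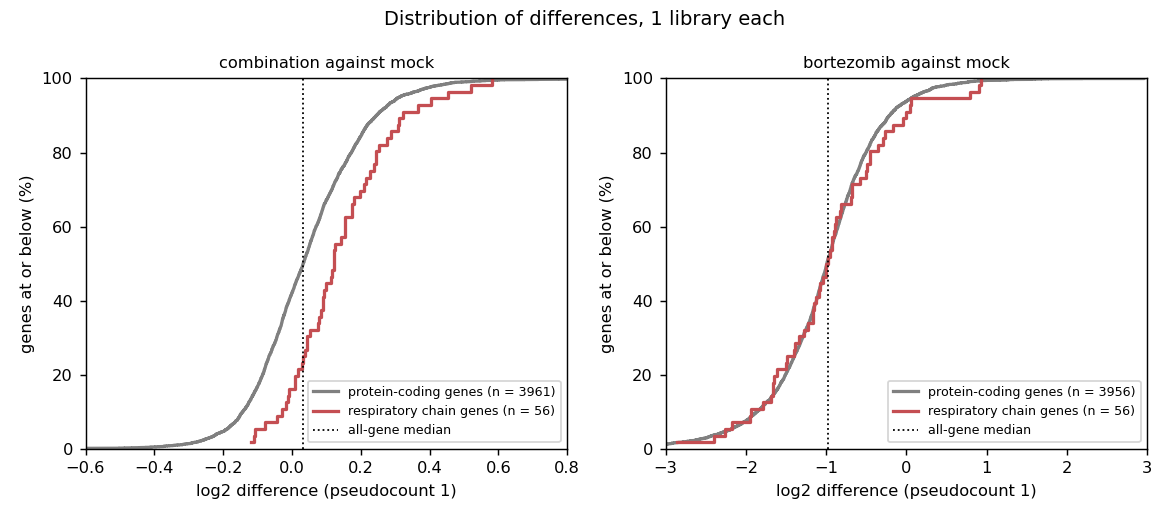
Cumulative share of genes by their log2 difference from mock (pseudocount 1), for 56 chain genes and the protein-coding genes compared. For the combination the chain curve lies to the right of the other, and for bortezomib both curves nearly coincide around -0.99.

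By ratio of levels to mock, 5 members were above 1 with bortezomib (8.93%, against 7.85% of all genes): UQCRHL, NDUFV3, NDUFAF8, NDUFC2 and ATP5F1D. Another 20 had a ratio under 0.25 (35.7%, against 35% of all genes). The 6 lowest, none above 0.108, were ATP5F1B, ATP5F1C, ATP5MD, ATP5ME, ATP5MF and NDUFA6. The median ratio was 0.329 in complex I, 0.424 in complex II, 0.369 in complex III, 0.359 in complex IV and 0.238 in complex V. The order of members changed with this. ATP5F1B, first in the other 4 libraries, was 11th with bortezomib, and NDUFV3, 50th in mock, was 8th.

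**Figure D4:**
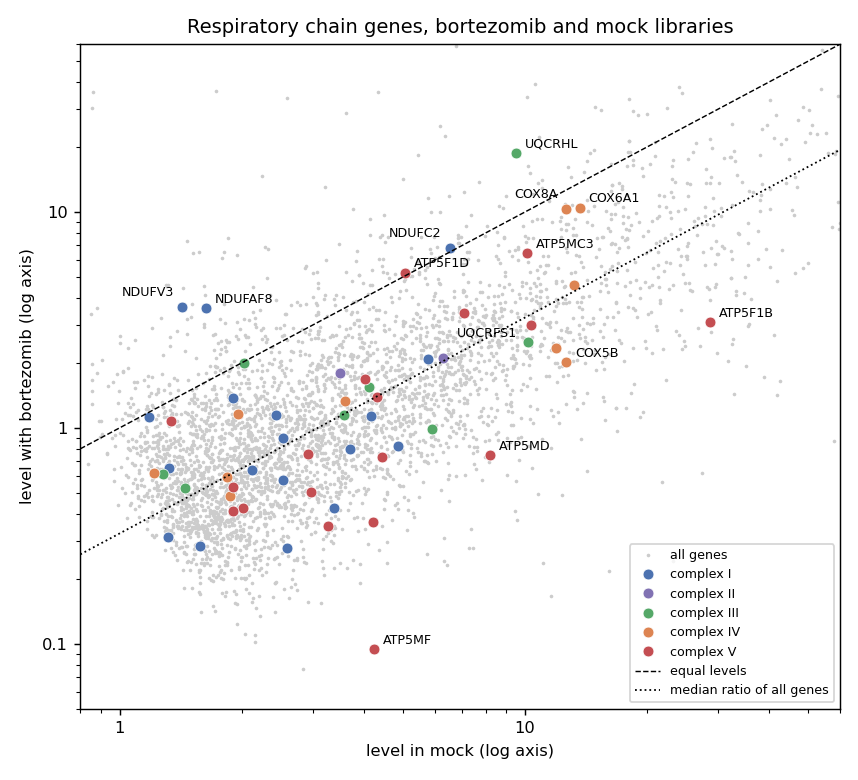
Level with bortezomib against level in mock (both log axes) for all genes (grey, axes limited) and the chain genes by complex. The dashed line marks equal levels and the dotted line the median ratio of all genes. COX8A and COX6A1 lie near the dashed line, COX5B and ATP5F1B below the dotted one.

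Complex I, the entry point for NADH, had the lowest median level of the complexes in each library except that with bortezomib, where complex V was lower (0.751 against 0.862). NDUFV1, which binds NADH and its flavin, had levels of 5.76 (mock), 6.55 (CGI-1746), 6.99 (LU-102), 7.39 (combination) and 2.09 (bortezomib). All 3 libraries with CGI-1746 or LU-102 were above mock, but the ratio of the combination to mock, 1.28, had a counting interval of 0.924 to 1.79. NDUFS3, a core subunit of the peripheral arm, had 4.86, 4.83, 4.44, 5.71 and 0.823 in the same order. Its bortezomib ratio of 0.169 (0.0747 to 0.358) was the lowest of the core subunits given here. NDUFS1, the largest subunit of the complex and a carrier of iron-sulfur clusters, had 1.91, 1.79, 1.62, 1.85 and 1.37. At 0.719 (0.504 to 1.02) its bortezomib ratio was the highest of them, and its interval does not meet that of NDUFS3. NDUFS1 overlaps EEF1B2, and NDUFS3 overlaps PTPMT1 and CELF1, so part of their reads may belong to those genes. NDUFS8, an iron-sulfur subunit, had 2.53, 2.29, 2.91, 3.08 and 0.902. Its bortezomib ratio of 0.356 (0.155 to 0.781) could not be told from that of NDUFS1 or NDUFS3 beyond counting error.

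Among accessory subunits, NDUFV3 (chr21:42893309-42913299) went the other way with bortezomib. Its levels were 1.42 (mock), 1.43 (CGI-1746), 1.37 (LU-102), 1.44 (combination) and 3.62 (bortezomib), a ratio of 2.55 (1.95 to 3.36). The first 4 libraries were nearly equal, and the bortezomib library stood alone. GENCODE 29 lists no gene that overlaps it. NDUFC2, a membrane arm subunit, had 6.53, 5.07, 4.86, 6.13 and 6.84. Both single agents were lower than mock, at 0.745 (0.50 to 1.11) for LU-102, and the combination was at 0.939 (0.637 to 1.35). Its gene overlaps the readthrough NDUFC2-KCTD14 on the same strand and THRSP on the other, so part of its reads may belong to them. NDUFA1, a small membrane subunit, had 1.32, 1.32, 1.31, 1.73 and 0.312, the last from about 4.4 rough reads. Of the assembly factors, NDUFAF8 had 1.63, 1.59, 1.26, 1.62 and 3.58, a bortezomib ratio of 2.19 (1.18 to 4.76). NDUFAF3 had 2.12, 2.30, 2.54, 3.14 and 0.641. The 2 assembly factors thus stood on opposite sides of mock with bortezomib. NDUFV3, NDUFAF8 and NDUFAF3 were singled out after their values were seen.

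Complex II, the succinate dehydrogenase that also serves the TCA cycle, was represented by its flavoprotein and 1 membrane anchor. SDHA, the flavoprotein, had 3.50 (mock), 3.66 (CGI-1746), 3.48 (LU-102), 3.79 (combination) and 1.79 (bortezomib). SDHD, the anchor, had 6.26, 6.11, 5.98, 7.08 and 2.12. Both were near mock in the first 3 treatments. Their bortezomib ratios of 0.511 (0.375 to 0.700) and 0.338 (0.221 to 0.507) have intervals that overlap.

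In complex III, the Rieske iron-sulfur protein gene UQCRFS1 had 10.1 (mock), 9.10 (CGI-1746), 9.58 (LU-102), 10.4 (combination) and 2.51 (bortezomib). It was at 0.248 (0.206 to 0.294) of mock with bortezomib and within 1.03 (0.914 to 1.15) of it with the combination. UQCRC1, a core protein, had 4.12, 4.06, 4.32, 4.22 and 1.55, and its bortezomib ratio was 0.375 (0.270 to 0.513). The small subunit UQCR11 stood apart from these. It had 2.03, 1.99, 2.25, 2.41 and 2.0, a bortezomib ratio of 0.989 (0.551 to 1.73). UQCR10, another small subunit, was at 0.168 (0.0893 to 0.306). UQCRB, next to the quinone site, had 1.45, 1.31, 1.24, 1.52 and 0.525.

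UQCRHL (chr1:15807374-15807649), an intronless copy of the hinge protein gene UQCRH, was the highest chain gene with bortezomib. It had 9.48 (mock), 9.51 (CGI-1746), 8.92 (LU-102), 11.8 (combination) and 18.7 (bortezomib). UQCRH itself had 1.28, 1.29, 1.38, 1.72 and 0.608. The quotient of both genes was 6.47 to 7.41 in the first 4 libraries and 30.7 with bortezomib. Their sequences are near-identical and how the authors assigned shared reads is not given, so neither level is certain. The gene model of UQCRHL is also longer in GENCODE 29 than in RefSeq, so its level, its rank and the quotient depend on the length used, which is not given, while its ratio between libraries does not. Without UQCRHL the chain genes summed to 270.6 (mock), 270.5 (CGI-1746), 273.9 (LU-102), 307.7 (combination) and 104.0 (bortezomib).

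Subunit genes of complex IV with like levels in mock differed with bortezomib. COX8A (chr11:63974620-63976543), a small subunit at the edge of the catalytic core, had 12.7 (mock), 14.4 (CGI-1746), 17.3 (LU-102), 19.4 (combination) and 10.3 (bortezomib). It was above mock in 3 libraries, by 1.37 (1.06 to 1.77) with LU-102 and 1.53 (1.20 to 1.97) with the combination. With bortezomib it stood at 0.815 (0.612 to 1.08) of mock. COX5B (chr2:97646062-97648383), the zinc-binding subunit, had 12.6, 13.9, 14.4, 14.1 and 2.01. It was as abundant as COX8A in mock, yet with bortezomib it was at 0.160 (0.103 to 0.245). The quotient of COX8A to COX5B was 1.004, 1.03, 1.20, 1.37 and 5.12 over the 5 libraries. COX6A1 had 13.6, 14.1, 14.8, 17.1 and 10.5, so it stood with COX8A, at 0.768 (0.590 to 0.996) of mock with bortezomib. COX7C had 11.9, 11.7, 10.7, 13.0 and 2.35, at 0.197 (0.126 to 0.294), and stood with COX5B. COX4I1, a large subunit that contacts the core, had 13.2, 13.2, 14.3, 15.1 and 4.61, between these pairs at 0.348 (0.253 to 0.466).

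Of the promoters shown above, those of COX5B, COX6A1 and COX8A all hold the ETS core, and that of COX6A1 also an NRF1 core. Whether promoter sequence bears on their bortezomib ratios was not tested. Over the 45 members with a promoter, the median bortezomib ratio was 0.338 for the 15 with the core and 0.265 for the 30 without, a description with no test. Transcript GC was 58.6% for COX8A, 53.5% for COX6A1, 53.9% for COX4I1, 52.0% for COX5B and 41.6% for COX7C, and its part was not tested. COX5B has 6 named processed pseudogenes, COX6A1 has 2 and COX8A none. COX6A1 and COX8A each overlap another protein-coding gene model of GENCODE 29 on the same strand. At the low end of complex IV, NDUFA4 had 1.21, 1.38, 1.5, 1.34 and 0.616, and COX7B had 1.87, 1.97, 2.07, 1.79 and 0.483, all close to mock except with bortezomib.

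Complex V held both the highest chain gene and the lowest ratios. ATP5F1B (chr12:56638175-56645984), the catalytic beta subunit of the F1 head, had 28.6 (mock), 29.9 (CGI-1746), 27.3 (LU-102), 31.2 (combination) and 3.08 (bortezomib). Its partner ATP5F1A, the alpha subunit, had 10.3, 9.97, 9.11, 10.4 and 3.01. Alpha and beta form the same ring in equal number, and their quotient was 0.334 to 0.362 in the first 4 libraries and 0.975 with bortezomib. The bortezomib ratios were 0.108 (0.0784 to 0.145) for beta and 0.291 (0.209 to 0.403) for alpha, with intervals apart. ATP5F1C, the gamma shaft, had 4.22, 4.33, 4.05, 4.38 and 0.366, at 0.0867 (0.0378 to 0.187). ATP5F1D, the delta subunit beside gamma in the central stalk, had 5.06, 4.57, 5.31, 5.68 and 5.23, at 1.03 (0.712 to 1.5). These neighbours in 1 stalk thus had bortezomib intervals far apart. ATP5PB, of the peripheral stalk, had 7.08, 6.91, 6.27, 7.01 and 3.39.

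The proton-carrying ring is made of a c subunit whose mature protein is the same from 3 genes. ATP5MC1 (chr17:48892787-48895871) had 4.43 (mock), 4.69 (CGI-1746), 6.74 (LU-102), 6.43 (combination) and 0.732 (bortezomib). ATP5MC3 had 10.1, 9.93, 10.1, 11.9 and 6.44. ATP5MC2 had 2.92, 2.91, 3.16, 3.65 and 0.756. ATP5MC1 was thus higher in both libraries with LU-102, with ratios of 1.52 (0.983 to 2.33) and 1.45 (0.932 to 2.23) whose counting intervals include 1. ATP5MC3 was the highest of the 3 in every library. Its share of the summed level of the 3 genes was 57.9% (mock), 56.6% (CGI-1746), 50.5% (LU-102), 54.1% (combination) and 81.2% (bortezomib). The sum itself was 17.5, 17.5, 19.99, 21.97 and 7.93. Processed pseudogenes are named for ATP5MC1 (7) and ATP5MC2 (3), and none for ATP5MC3, which overlaps a small RNA gene on its own strand and a pseudogene on the other.

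**Figure D5:**
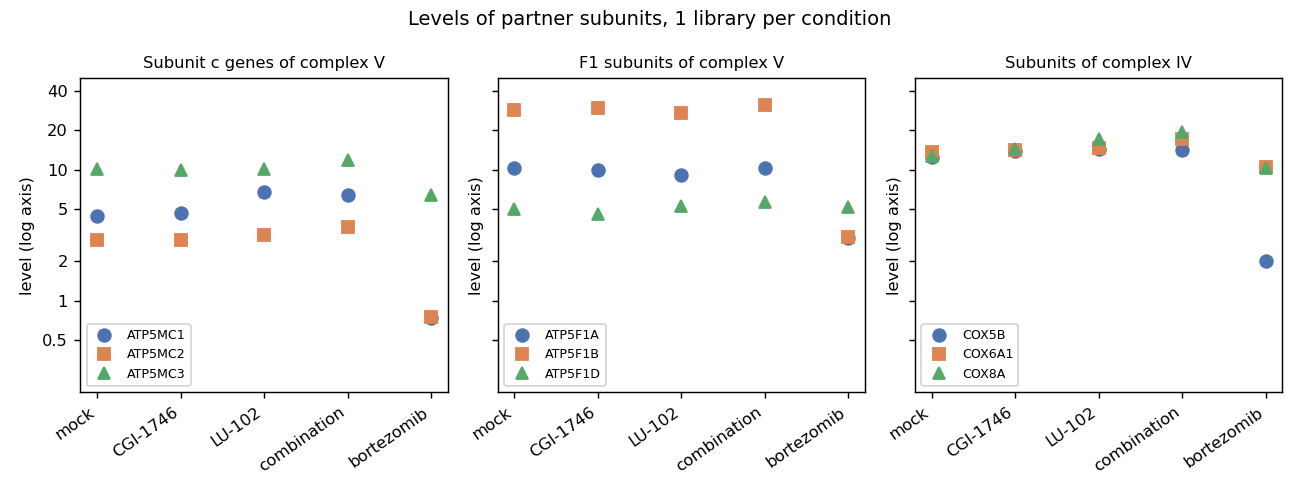
Levels (log axis) in the 5 libraries of the 3 c subunit genes and 3 F1 subunits of complex V, and of 3 subunits of complex IV. With bortezomib ATP5MC3 stands over the other c genes, ATP5F1A and ATP5F1B meet near 3, and COX5B drops away from COX6A1 and COX8A.

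The small membrane subunits of complex V differed among themselves with bortezomib. ATP5MD, also called DAPIT and a linker of ATP synthase dimers, had 8.21, 6.78, 6.88, 7.54 and 0.746, at 0.0909 (0.0419 to 0.188). It was also below mock in every other treatment. ATP5MF, the f subunit, had 4.25, 4.60, 4.51 and 4.31 in the first 4 libraries and 0.0942 with bortezomib, under 1 rough read (about 22 in mock), so no fold is given. It overlaps PTCD1 and the readthrough ATP5MF-PTCD1. ATP5ME, the e subunit, had about 2.4 rough reads with bortezomib and a ratio of 0.108 (0.0103 to 0.373). ATP5MPL had 1.90, 1.72, 1.69, 2.11 and 0.413. ATP5MG, the g subunit, stood higher, at 0.419 (0.247 to 0.711). On the log2(level + 1) scale 6 of the 8 membrane subunits were 2-fold or more lower with bortezomib, as were 5 of the 8 of the F1 head and stalks (48.1% of all genes). By level ATP5MG and ATP5PB were also more than 2-fold lower, but they do not count on that scale. ATP5IF1, which blocks ATP hydrolysis when the proton gradient fails, had 4.30, 4.76, 4.13, 5.64 and 1.39. Its ratio of the combination to mock was 1.31 (0.871 to 2.04). ATP5MGL, a copy of ATP5MG inside CYB5R3, had 1.34, 1.47, 1.1, 2.36 and 1.08. Its combination ratio of 1.76 (0.959 to 3.33) was the highest of all members, and reads of CYB5R3 and ATP5MG may be counted with it.

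Many members overlap other genes or have near copies, so reads may have been shared. Processed pseudogenes are named in GENCODE 29 for 27 members, whose median bortezomib ratio was 0.279, against 0.362 for the 29 without. Another gene overlaps 39 members on either strand (median ratio 0.302), and 17 have no such overlap (0.475). Whether the counting used strand is not given, and the part of either in the bortezomib ratios was not tested.

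Other genes that serve the chain were taken from lists outside the symbol pattern. Of 3 listed electron carriers and related proteins, CYC1, the cytochrome of complex III, had 21.1 (mock), 18.8 (CGI-1746), 21.5 (LU-102), 26.2 (combination) and 7.20 (bortezomib). CYCS, cytochrome c itself, had 22.7, 19.6, 17.6, 21.5 and 5.81. Both were 2-fold or more lower with bortezomib and C15orf48 was not. Of 19 listed assembly factors of complexes II to V, 5 were 2-fold lower with bortezomib on the log2(level + 1) scale. Their median was -0.70. Of all genes 48.1% were 2-fold lower, and the all-gene median was -0.98. COA3, for complex IV, went from 14.2 to 1.44 and COA4 from 5.88 to 0.759. HIGD2A, a respirasome factor, had 18.0 in mock and 19.04 with bortezomib. COX18, which inserts a complex IV subunit into the membrane, had 1.0 and 2.67. HIGD2A and COX18 were singled out after their values were seen. Of 4 listed complex I assembly factors outside the pattern, 2 were 2-fold lower (48.1% of all genes). Of 5 listed regulators of chain genes, 1 was (48.1% of all genes): TFAM, which activates mitochondrial DNA transcription, went from 6.91 to 1.68. The transcription factor MYC had 13.1 and 10.7, the coactivator PPRC1 4.63 and 2.86, and YY1 1.67 and 0.404. YY1 was more than 2-fold lower by level, but its difference on the log2(level + 1) scale was -0.93. The pseudocount shrinks differences of low-level genes in all these counts. With the combination none of these 5 regulators passed either bound, as 4.34% and 1.93% of all genes did.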

How the data were processed

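Total RNA was sequenced by the authors with 150 bp paired reads, 40 M planned per library, per the labels' protocols. Partek and hg38 are named in the submitters' processing notes. The sources used here give no version, aligner, annotation, filter, strand setting or normalization. The authors deposited 1 normalized signal per gene and library, headed as a least squares mean, whose scale is not stated. Another 7 columns repeat libraries and were not used, nor were the deposited ratio and p-value columns.

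Libraries were compared as differences of log2(level + 1), pseudocount 1, over genes that reached a level of 1 in 1 of both libraries, for 6 pairs and the departure from additivity. Counts used 25% above or 20% below the all-gene median, and 2-fold from 0. With 1 library per condition nothing was tested. The calculation was checked on simulated data. Members and lists were chosen with earlier results of these data known. All 5 values are given for the core subunits, the 2 highest and 2 lowest genes of each complex, and the 4 highest and 4 lowest members of each treatment (2 and 2 for the other comparisons) at a level of 5 or more. Up to 4 genes are named per other list. The values of 1 member are not reported here, though it is counted. Other members (NDUFV3, NDUFAF3, NDUFAF8, NDUFA6, NDUFB7, NDUFB10, UQCRQ, UQCR10, UQCR11, ATP5MC2, ATP5ME, ATP5MF and ATP5MG) were named after their values were seen. RefSeq (GRCh38.p14) matched 55 members and GENCODE 29 all 56. Alternatives were other pseudocounts, level minimums, scalings, an adjustment for length, GC and level, and structural subunits alone. Leaving out members with pseudogenes, those under 20 rough reads, or both intronless copies was added after seeing the data. Tools were Python 3.11.15 with pandas 2.3.3, numpy 2.4.6, matplotlib 3.10.9 and scipy 1.17.1.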

Additional observations from a re-analysis of the deposited data

How the results depend on the processing

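No paired analysis was possible because each condition has 1 library, and no library could be left out in turn. Of the medians and counts over the members, 126 values under an alternative stayed near the reported one and 28 moved. The median with bortezomib less the all-gene median, -0.01, became 0.21 at a level of at least 5 (17 members) and 0.087 without members with named pseudogenes. The other medians moved by less than 0.1. Counts past 25% above or 20% below the all-gene median depended on the pseudocount. At 0.1 they were 2 for CGI-1746, 8 for LU-102, 8 for the combination, 8 for the combination against CGI-1746, 5 against LU-102 and 7 for the departure. At 5 they were 1 for the combination, 19 for bortezomib, and 0 for the combination against either agent and for the departure. At a level of at least 5 they were 2 for the combination, 12 for bortezomib, 1 against CGI-1746, 0 against LU-102 and 1 for the departure. The adjustment for length, GC and level gave 1 for CGI-1746, 3 for the combination and 2 against CGI-1746. Structural subunits alone gave 3 for the combination and 1 against LU-102. Without members with pseudogenes bortezomib gave 19 and the combination against CGI-1746 2. Without those under 20 rough reads the combination against LU-102 gave 1 and the departure 2, and without the intronless copies the former gave 1. Fewer members enter in these last settings. Of the values of single named members under an alternative, 570 stayed within 0.1 (log2), 134 moved further on the same side of the all-gene median or without a call, and 4 changed side, all with bortezomib. ATP5MC3 had -0.40 at pseudocount 5 (all genes -0.38). COX4I1, reported below the all-gene median, had -1.50 at pseudocount 0.1 (all genes -1.53), -1.34 at a level of at least 5 (-1.43) and -0.077 when scaled to protein-coding genes (-0.13). Depth limits the lowest members: 9 of 56 had under 20 rough reads in mock, and the reads behind any level are only roughly known.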

Other observations

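Genes that feed the chain or bring its subunits into mitochondria were counted against the 48.1% of all genes that were 2-fold lower with bortezomib. The lists were chosen with results known, the counts come from 2 libraries, and none was tested. Assembly factors of complexes II to V (5 of 19) and regulators (1 of 5) had the lower shares given above, on the log2(level + 1) scale. That scale shrinks differences between low levels, and many of these genes were at low levels. Their lower shares therefore do not show that they fell less than other genes. Shares above 48.1%, as in the 3 lists that follow, are on the same scale and depend on level too. They do not show that those genes fell more than other genes. The genes whose fall is given from each of these lists are those farthest below 0. Of 9 listed TCA cycle and pyruvate dehydrogenase genes 7 were 2-fold lower, with a median of -1.11. PDHB, of pyruvate dehydrogenase, went from a level of 8.33 in mock to 1.66, and CS, citrate synthase, from 4.11 to 0.520. Of 19 import genes 15 were 2-fold lower, with a median of -1.27. HSPA9, the matrix chaperone that pulls in precursors, went from 12.0 to 1.99. Of 12 listed cristae, prohibitin and carrier genes 8 were 2-fold lower, with a median of -1.67. SLC25A5, an ADP/ATP carrier that delivers the substrate of complex V, went from 46.2 to 5.24, and PHB2, a prohibitin, from 13.2 to 1.39.

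MICOS13, a small cristae junction protein, had levels of 1.27 (mock), 1.82 (CGI-1746), 2.48 (LU-102), 2.65 (combination) and 0.736 (bortezomib). TIMM13, an import chaperone, had 8.11, 8.52, 10.03, 11.2 and 4.06. Both were above mock in the 3 libraries with CGI-1746 or LU-102, as COX8A was. They were picked as the highest with the combination of 12 cristae, prohibitin and carrier genes and 19 import genes. The median combination difference of these lists was 0.07 and 0.06, against 0.03 for all genes. TOMM20 and TOMM70, also import genes, were below mock in all 3 libraries. The share of all genes above mock in all 3 was not counted, and MICOS13 was at a low level. All 3 libraries were read against 1 mock.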
